A study of Mus musculus with 10 samples.

Results

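The genes described here are 31 that build the contractile unit of the heart muscle cell, the sarcomere, and its borders: 3 thick filament genes, 8 thin filament genes, titin with 2 M-band genes, 13 Z-disc genes and 4 genes of the intercalated disc and its filaments. They were chosen by gene symbol for these known roles and not by a rule on measured values, but with earlier results of these data known. All 31, called members below, were found among the 24537 genes of the deposited table. Heart RNA came from 10 mice aged 6 weeks, 5 control and 5 iSOD2. The iSOD2 mice carried 1 copy each of the Rosa26-rtTA2 transactivator and of a TRE-SOD2-shRNA hairpin (Rosa26-rtTA2+/-;TRE-SOD2-shRNA+/-), and the control mice carried the transactivator without the hairpin (Rosa26-rtTA2+/-;TRE-SOD2-shRNA-/-). All 10 had met doxycycline before birth, through the chow of C57BL/6J dams, so the hairpin against Sod2, the mitochondrial superoxide dismutase, was switched on during embryonic life and no longer at sampling. The Rosa26 promoter is active in most tissues, so the knockdown was not limited to the heart, and the hairpin cassette lies beside Col1a1. Each genotype held 2 mice of litter A and 3 of litter B. The controls were 3 males and 2 females and the iSOD2 mice 2 males and 3 females, so that litter A had 3 males and 1 female and litter B 2 males and 4 females. Mice are named by their label numbers, control 1, 2, 3, 4 and 6 and iSOD2 5, 7, 8, 9 and 10, and litter A comprised control 1 and 2 and iSOD2 7 and 8.

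In the sarcomere, myosin-based thick filaments pull on actin-based thin filaments, and calcium binding to the troponin complex on the thin filament lets them do so. Thin filaments are anchored in the Z-disc, a lattice of alpha-actinin and partner proteins that also senses stretch, thick filaments are cross-linked in the M-band, and titin runs from the one to the other as a molecular spring. At the intercalated disc the outermost thin filaments connect to the neighbouring cell, and mutations in many of these genes cause inherited cardiomyopathy.

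Sequencing gave 16448090.5 to 24263085.5 counts over genes per library, and the member with the fewest counts had 195.5 in its lowest library. Sod2 itself stood at 10573 ± 588 normalized counts (SD, n = 5) in controls and 10781 ± 449 in iSOD2 hearts, a log2 difference of 0.03 (DESeq2 adjusted p = 0.806), so its level at 6 weeks does not check the labels of a knockdown that had ended. The labelled tissue was checked with markers. Myh6, the adult ventricular myosin heavy chain, stood at 967217 ± 91549 and 908693 ± 109709 normalized counts, whereas the fast skeletal myosins Myh1, Myh2 and Myh4 had at most 4.05, 2.93 and 1.01 in any heart. Markers of other tissues differed in amount between the hearts. The 6 atrial markers summed to 518 to 2124 normalized counts in controls and 635 to 7660 in iSOD2 hearts, and the 7 hepatocyte markers to 199 to 8866 and 4514 to 18407. Of the hepatocyte list all 7 were above 0 in fold change and 1, Apoa2, was called. The 6 smooth muscle markers summed to 7861 to 13900 and 8235 to 13746, and of the 5 tested 3 were above 0 and 2 below, with Tagln and Myh11 called higher and the defining marker Acta2 at -0.07 in log2 fold change. The 6 fibroblast markers summed to 24127 to 28536 and 22827 to 28300, and of the 5 tested 2 were above 0 and 3 below, with 1 called, Col1a1 at -0.55, the gene beside the hairpin cassette. The 6 endothelial markers summed to 17790 to 21334 and 18179 to 20338 with 0 called. The 12 skeletal muscle markers, mostly Acta1, summed to 2586 to 4202 and 2812 to 6017 with 0 called. Of 5 erythroid markers, 5 were below 0 and 0 called, and of 6 macrophage markers 5 were below 0 and 0 called. Of the 9 ventricular markers 4 were above 0 and 5 below, and 2 were called, Mb (myoglobin) at 0.26 and Gja1 (connexin 43) at -0.29 in log2 fold change. Ryr2, at -0.16 (DESeq2 adjusted p = 0.0427), was lower in every iSOD2 heart than in any control but was not called. The part of these other cells in the results below was not tested.

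Members were read against the DNA just upstream of their transcription start as given by RefSeq (GRCm38.p6, the assembly of mm10). A 250-base window was found for 26 of the 31, not for Tcap, Nexn, Myom2, Xirp1 and Cryab, and those of Myl2 and Capzb lay more than 100 bases from the start of the counted transcript, which left 24. Letters of the MEF2 box, bound by myocyte enhancer factors, were in 6 of the 24 (25%), against 2.89% of all 32536 windows. The CArG box, bound by serum response factor, was in 5 (20.8%), against 1.48%. Both strands were searched. Either box was in 10 of the 24, against 4.30% of all windows, and 1 pair of matches overlapped, in Fhl2. The E-box (CANNTG) was in 83.3% of member windows and 66.2% of all, and TATAAA in 8.33% and 12.3%. The MEF2 box was found upstream of Mybpc3, Ttn, Myoz2, Synpo2l, Fhl2 and Xirp2, and the CArG box upstream of Myl3, Actc1, Myom1, Ldb3 and Fhl2. A match describes these letters only and is not a measured binding site. The windows of 5 members are printed because they hold the 2 kinds of box in genes that differed between litters (Mybpc3, Synpo2l) or had a fold change against the length trend (Xirp2), in the cardiac actin gene (Actc1), and, for Mypn, a gene that fell in iSOD2 hearts, neither box. They are read 5′ to 3′ on the gene's strand, and capitals mark a MEF2 box in Mybpc3, Synpo2l and Xirp2, a CArG box in Actc1 and a TATA box on the opposite strand in Mypn.
Mybpc3 chr2:91117894-91118143 (+ strand): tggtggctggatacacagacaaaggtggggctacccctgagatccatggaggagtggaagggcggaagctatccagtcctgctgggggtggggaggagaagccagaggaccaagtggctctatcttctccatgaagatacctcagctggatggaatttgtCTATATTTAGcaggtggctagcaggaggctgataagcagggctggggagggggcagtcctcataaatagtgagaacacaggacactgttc
Actc1 chr2:114052876-114053125 (- strand): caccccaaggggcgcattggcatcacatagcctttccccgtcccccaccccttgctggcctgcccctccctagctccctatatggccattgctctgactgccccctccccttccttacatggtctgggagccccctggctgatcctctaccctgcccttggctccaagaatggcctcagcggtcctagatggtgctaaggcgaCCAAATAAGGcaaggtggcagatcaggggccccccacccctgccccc
Mypn chr10:63203953-63204202 (- strand): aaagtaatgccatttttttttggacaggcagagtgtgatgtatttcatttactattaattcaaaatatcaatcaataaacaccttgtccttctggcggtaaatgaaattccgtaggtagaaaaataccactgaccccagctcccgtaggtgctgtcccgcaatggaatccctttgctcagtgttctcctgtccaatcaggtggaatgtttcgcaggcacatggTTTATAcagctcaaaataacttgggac
Synpo2l chr14:20668355-20668604 (- strand): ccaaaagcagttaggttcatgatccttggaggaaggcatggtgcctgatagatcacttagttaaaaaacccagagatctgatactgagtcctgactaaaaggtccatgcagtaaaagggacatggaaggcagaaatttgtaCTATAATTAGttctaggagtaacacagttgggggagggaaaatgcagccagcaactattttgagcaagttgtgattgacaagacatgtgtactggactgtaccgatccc
Xirp2 chr2:67445752-67446001 (+ strand): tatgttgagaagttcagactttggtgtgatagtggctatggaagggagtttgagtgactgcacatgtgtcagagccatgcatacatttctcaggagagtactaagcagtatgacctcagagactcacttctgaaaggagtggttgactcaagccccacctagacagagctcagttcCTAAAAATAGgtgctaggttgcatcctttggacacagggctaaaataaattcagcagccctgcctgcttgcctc

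Levels are compared between genes as normalized counts per kb of exon, since longer transcripts collect more counts. Myl2, the ventricular regulatory light chain, was highest at 220696 ± 17098 per kb (SD over 10 mice), followed by Actc1, cardiac alpha-actin, at 144313, and Tpm1, alpha-tropomyosin, at 130670. The troponins followed, with troponin I (Tnni3) at 84600, troponin T (Tnnt2) at 62193 and troponin C (Tnnc1) at 46142. Titin (Ttn), whose counted transcript has 101359 bp of exon, lay below the troponins at 29460 per kb although it took 12.5% to 16.6% of all counts. The lowest levels were those of the Z-disc genes Mypn, Synpo2l and Pdlim3 at 614, 478 and 162 per kb, which put Myl2 1362-fold above Pdlim3. Of the 30 neighbouring pairs in this order, 6 did not overlap over the 10 mice. These gaps lay below Myl2, Tpm1, Tnnt2, Tnnc1, Tmod1 and Synpo2l. From the ranges no order is read between the other neighbours, which are listed by their means. Ranges do not use that all genes were measured in the same hearts. Heart by heart, Tnni3 was above Myl3 in all 10, Actc1 above Tpm1 in 9 and Tcap above Mybpc3 in 5. Of all counts the 31 genes together took 20.4% ± 1.27 (SD, n = 5) in controls, against 19.7% ± 0.824 (SD, n = 5) in iSOD2 hearts. Without Ttn they took 5.55% ± 0.16 and 5.80% ± 0.0948.

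**Figure D1:**
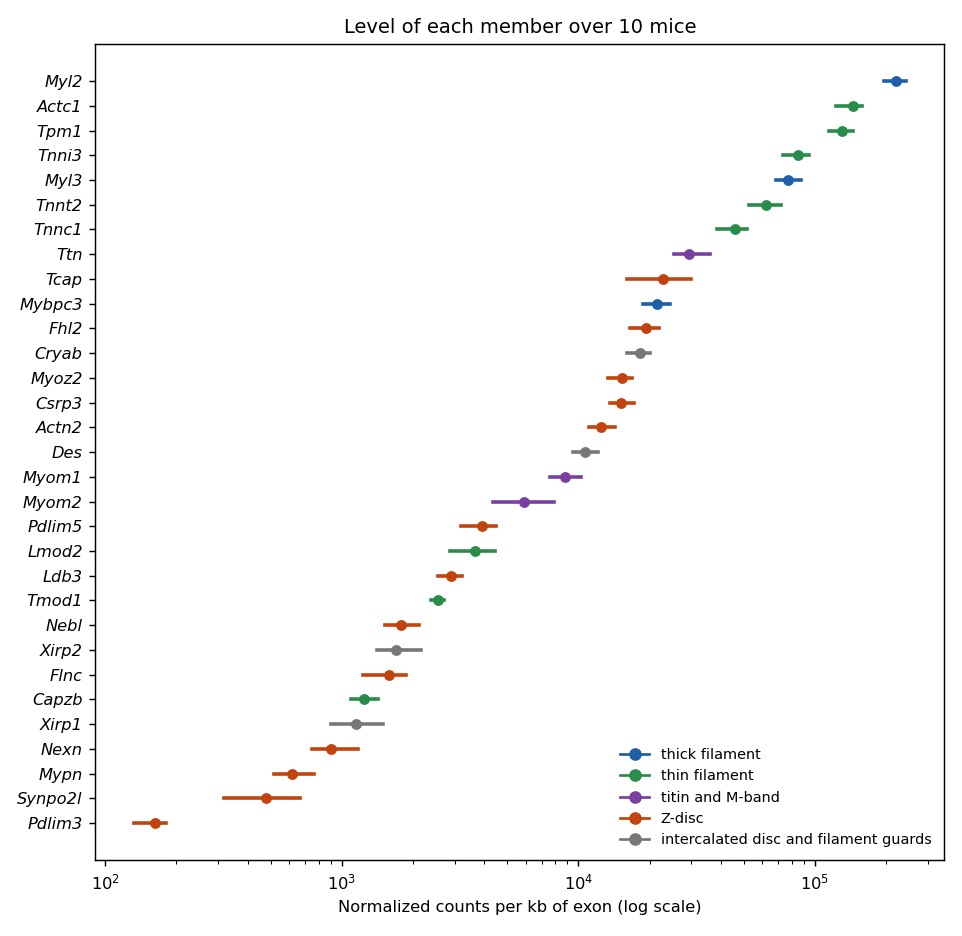
Level of each of the 31 genes in normalized counts per kb of exon on a log axis, with a point for the mean and a line from the lowest to the highest of the 10 mice, coloured by role. Light chain, actin, tropomyosin and troponin genes form the top of the order from 220696 down to 46142 per kb, and Pdlim3 ends it at 162.

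The first question was which of these genes differed between iSOD2 and control hearts after birth, once the hairpin was off. Tcap (telethonin), which caps the titin ends in the Z-disc, rose, and Flnc (filamin C), Mypn (myopalladin) and Xirp1 fell. A gene was called at a DESeq2 adjusted p of at most 0.05 with an absolute log2 fold change above 0.25. By that rule 4 of 31 members were called (12.9%), against 2.96% of all 9479 genes tested. The 1 call higher compares with 1.27% of all genes and the 3 calls lower with 1.7%. Over the members the fold change was above 0 for 17 and below 0 for 14, and the median log2 fold change was 0.03, against -0.01 for all genes tested. The median absolute log2 fold change was 0.11 for the members and 0.083 for all genes tested. At an unadjusted p under 0.05, 13 members passed (41.9%), against 13.2% of the 17728 genes fitted and 20% of those with an adjusted p (1899 of 9479), as all members had. edgeR's quasi-likelihood test called 0 members and 0 genes in all after adjustment. Its lowest member adjusted p was 0.0664, for Flnc, and 12 members had an unadjusted p under 0.05, against 15.3% of the 17728 genes, as did 12 by limma voom, which also called 0. In bulk tissue fewer cells of a type and less RNA per cell cannot be told apart.

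Flnc encodes filamin C, an actin cross-linker at the Z-disc and the cell border that gathers at sites of sarcomere damage (chromosome 6, 29433153 to 29461888, mm10). Its normalized counts were 16952, 16912, 16638, 15755 and 15030 in control 1, 2, 3, 4 and 6 and 13723, 13050, 13366, 11177 and 11471 in iSOD2 5, 7, 8, 9 and 10. Every iSOD2 heart lay below every control heart. The means were 16257 ± 839 and 12557 ± 1155 (SD, n = 5), which is -0.37 as a log2 fold change (SE 0.07, adjusted p = 4.71e-05 by DESeq2). The difference was -0.36 within litter A and -0.38 within litter B, and -0.47 in males and -0.26 in females. It was called with each heart left out in turn.

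Mypn encodes myopalladin, which ties alpha-actinin to nebulin-type proteins and to the titin-associated ankyrin repeat proteins. Its normalized counts were 3680, 4004, 3273, 3464 and 3102 in controls and 3084, 3100, 2708, 2863 and 2791 in iSOD2 hearts. The groups did not overlap, although control 6 and iSOD2 7 lay side by side at 3102 and 3100. The difference on the log2 scale was -0.27 (SE 0.07, adjusted p = 0.00986 by DESeq2). Its size was just past the 0.25 threshold. Without control 2 it was -0.22 and without iSOD2 8 -0.24, both under the threshold. The difference was -0.40 within litter A and -0.17 within litter B, and -0.29 in males and -0.20 in females. It was not called after removal of the exon length trend described below. Flnc and Mypn were the only members without overlap, 6.45% of the 31, against 5.73% of all genes tested, of which 2.56% were lower and 3.16% higher in iSOD2.

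Xirp1 and Xirp2 encode the Xin actin-binding repeat proteins of the intercalated disc, which bind and stabilise actin filaments. Xirp1 had 8282, 8753, 7181, 6355 and 6581 normalized counts in controls and 5925, 6917, 5818, 5997 and 5271 in iSOD2 hearts. Only iSOD2 7, a male of litter A, reached into the control range. The difference on the log2 scale was -0.31 (SE 0.10, adjusted p = 0.0277 by DESeq2). The difference was -0.42 within litter A and -0.23 within litter B, and -0.32 in males and -0.19 in females. The call was lost after removal of the exon length trend. It held without control 4, control 6 or iSOD2 7. It was lost without any of the others, with a log2 fold change of -0.25 and an adjusted p of 0.116 without control 2, an adjusted p of 0.101 without iSOD2 10, 0.0947 without control 1, 0.0859 without control 3, 0.0781 without iSOD2 8, 0.0615 without iSOD2 5 and 0.0527 without iSOD2 9. Xirp2 had a higher mean in iSOD2 hearts. It had 18213, 21234, 16834, 19281 and 16804 in controls and 21206, 25932, 23843, 21944 and 17010 in iSOD2 hearts. 3 iSOD2 hearts lay above all controls, and iSOD2 10 lay at the low end of the control range. Its log2 fold change of 0.25 ± 0.10 did not pass (adjusted p = 0.121), and without iSOD2 10 it was 0.33 with an adjusted p of 0.00757.

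Within a heart the ratio of 2 genes does not depend on how libraries are scaled, so 9 ratios of partner genes, per kb of exon, were compared by a two-sided exact permutation test over mice. With 5 mice against 5 the smallest possible p was 0.00794. The Xirp2 to Xirp1 ratio was 1.07, 1.18, 1.14, 1.48 and 1.25 in controls and 1.75, 1.83, 2.0, 1.79 and 1.57 in iSOD2 hearts. Every iSOD2 heart was above every control. The means were 1.23 ± 0.156 and 1.79 ± 0.153 (SD, n = 5), a log2 difference of 0.55 with an exact permutation p of 0.00794, the smallest possible, and 0.0714 after Benjamini-Hochberg adjustment over the 9 ratios. The difference was 0.76 within litter A and 0.41 within litter B, and 0.67 in males and 0.38 in females. When genotypes were permuted only between mice of 1 litter, the exact permutation p was 0.0167, again the smallest possible. The Tcap to Ttn ratio was 0.640 ± 0.138 in controls and 0.935 ± 0.182 in iSOD2 hearts, a log2 difference of 0.55 with an exact permutation p of 0.0238 (adjusted 0.107), and the groups overlapped. None of the 9 ratios passed after adjustment. A single ratio could not have passed, because the smallest possible exact permutation p becomes 0.0714 when only 1 of the 9 reaches it. The adjusted test therefore could not decide about the Xirp2 to Xirp1 ratio. The other 7, among them Myl2 to Myl3, Tnnt2 to Tnni3, Myom2 to Myom1 and Cryab to Des, had exact permutation p-values from 0.198 to 0.833.

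Tcap lies on chromosome 11 (98383811 to 98384953, mm10) and its exons span 944 bp. Its normalized counts were 20792, 17160, 15177, 21446 and 16614 in controls and 27320, 26214, 28159, 19111 and 22950 in iSOD2 hearts. 4 iSOD2 hearts were above all controls, and iSOD2 9, a male of litter B, lay inside the control range. The means were 18238 ± 2738 and 24751 ± 3722 (SD, n = 5), which is 0.44 as a log2 fold change (SE 0.12, adjusted p = 0.00677 by DESeq2). The difference was 0.52 within litter A and 0.38 within litter B, and 0.36 in males and 0.46 in females. Without control 3, the lowest heart, it was 0.38 with an adjusted p of 0.0557, and it was called with any other heart left out, but not after removal of the exon length trend.

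**Figure D2:**
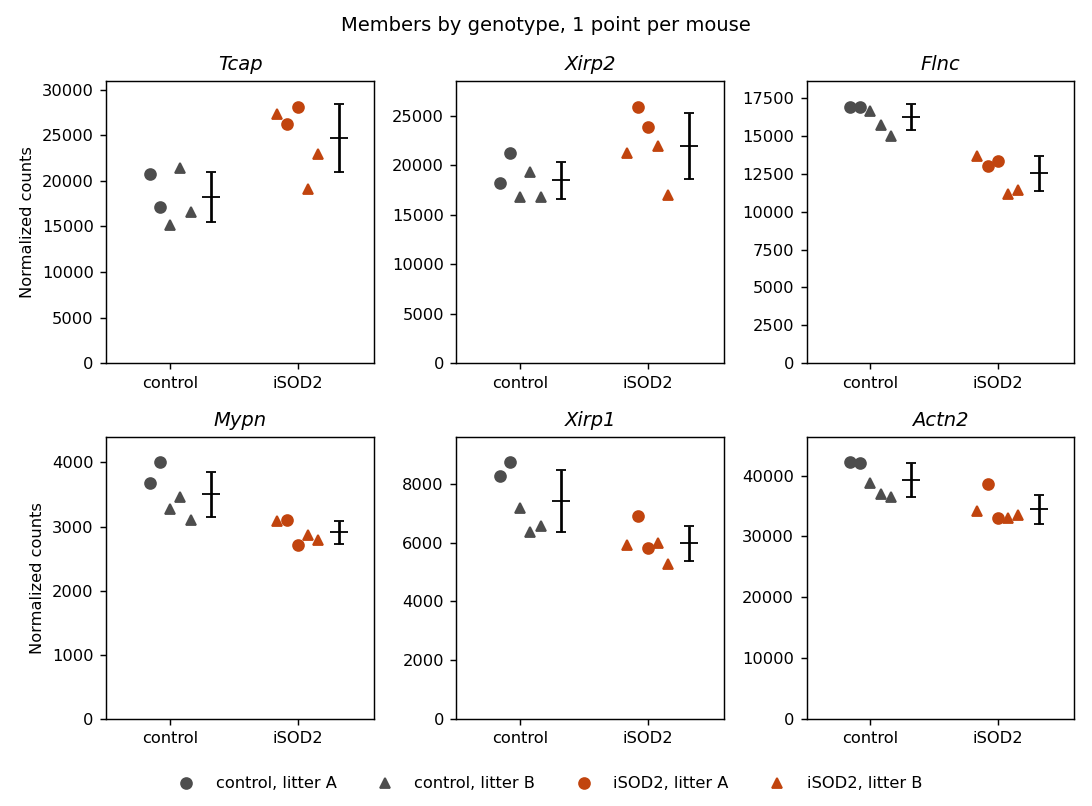
Normalized counts of 6 genes in each heart (linear axes from 0), grey for control and orange for iSOD2, circles for litter A and triangles for litter B, with mean ± SD beside each group (n = 5). The groups are apart for Flnc and Mypn, 1 iSOD2 heart reaches the control range for Xirp1, and 1 lies within it for Tcap.

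The remaining Z-disc genes divided by direction. Actn2, the alpha-actinin that forms the Z-disc lattice, had 42208, 42073, 38803, 36948 and 36434 in controls and 34109, 38638, 33084, 32960 and 33541 in iSOD2 hearts. All iSOD2 hearts but iSOD2 7 were below all controls. Its log2 fold change of -0.19 ± 0.06 (SE) had a DESeq2 adjusted p of 0.0447 but was under the size threshold, so it was not called, and 5 members in all passed on adjusted p alone, against 6.09% of all genes. Ldb3 (cypher, a PDZ-LIM partner of alpha-actinin), Nebl (nebulette, which runs along the thin filament ends) and Synpo2l (an actin-binding partner of alpha-actinin) each had a log2 fold change of -0.16, with adjusted p of 0.130, 0.211 and 0.754. Nexn (nexilin, an actin-binding protein) was at 0.25 (adjusted p = 0.154) and Csrp3 (the muscle LIM protein) at 0.13 (adjusted p = 0.146). Without control 4 the Nexn difference was 0.33 with an adjusted p of 0.0196. Myoz2 (calsarcin, a calcineurin anchor), Fhl2, Pdlim3 and Pdlim5 lay between -0.01 and 0.10, with adjusted p from 0.484 to 0.968. Within the Z-disc group 6 genes were above 0 and 7 below, with a median log2 fold change of -0.01.

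No thin filament gene was called. The troponins were all above 0, with log2 fold changes of 0.18 ± 0.06 for Tnnt2, 0.15 ± 0.06 for Tnnc1 and 0.12 ± 0.06 for Tnni3 (± SE), with DESeq2 adjusted p of 0.0748, 0.113 and 0.264. Tnnt2, which holds the troponin complex on tropomyosin, had 74823, 67191, 62741, 73252 and 70719 normalized counts in controls and 83841, 85871, 75337, 74333 and 74478 in iSOD2 hearts. 3 of the iSOD2 hearts lay above all controls and the other 2 lay just under the highest control. Tpm1 was at 0.12, Actc1 and Capzb (the barbed end capping protein) at -0.09, and the filament length regulators Lmod2 and Tmod1, which act at the pointed end, at 0.04 and -0.01. Actc1 shares long near-identical stretches with the skeletal actin gene Acta1, so reads of the 2 can be mixed, and Tmod1 and Cryab overlap the counted genes Tstd2 and Hspb2.

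The thick filament genes, the M-band genes and titin were not called. Myl3 (essential light chain), Myl2 and Mybpc3 (cardiac myosin binding protein C, which brakes cross-bridges) were at 0.11, 0.06 and 0.03 on the log2 fold change scale. Ttn had 3257670, 3656280, 2941380, 2693960 and 2970820 normalized counts in controls and 2563720, 3042150, 2884880, 3091860 and 2758140 in iSOD2 hearts. The groups overlapped over most of their range, and the difference on the log2 scale was -0.11 (SE 0.08, adjusted p = 0.457 by DESeq2). The myomesins Myom1 and Myom2, which cross-link thick filaments, were at -0.07 and -0.01. Of the disc and filament guards, Des (desmin, the intermediate filament that links Z-discs) was at 0.08 and Cryab (alpha-B crystallin, a small heat shock chaperone for desmin and titin) at 0.10. Of the 27 members not called, 17 had a 95% interval of the log2 fold change that lay wholly between -0.25 and 0.25. The interval of Myom2 ran from -0.37 to 0.34 and that of Synpo2l from -0.60 to 0.29, so a change of that size was not detectable for them at this spread.

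**Figure D3:**
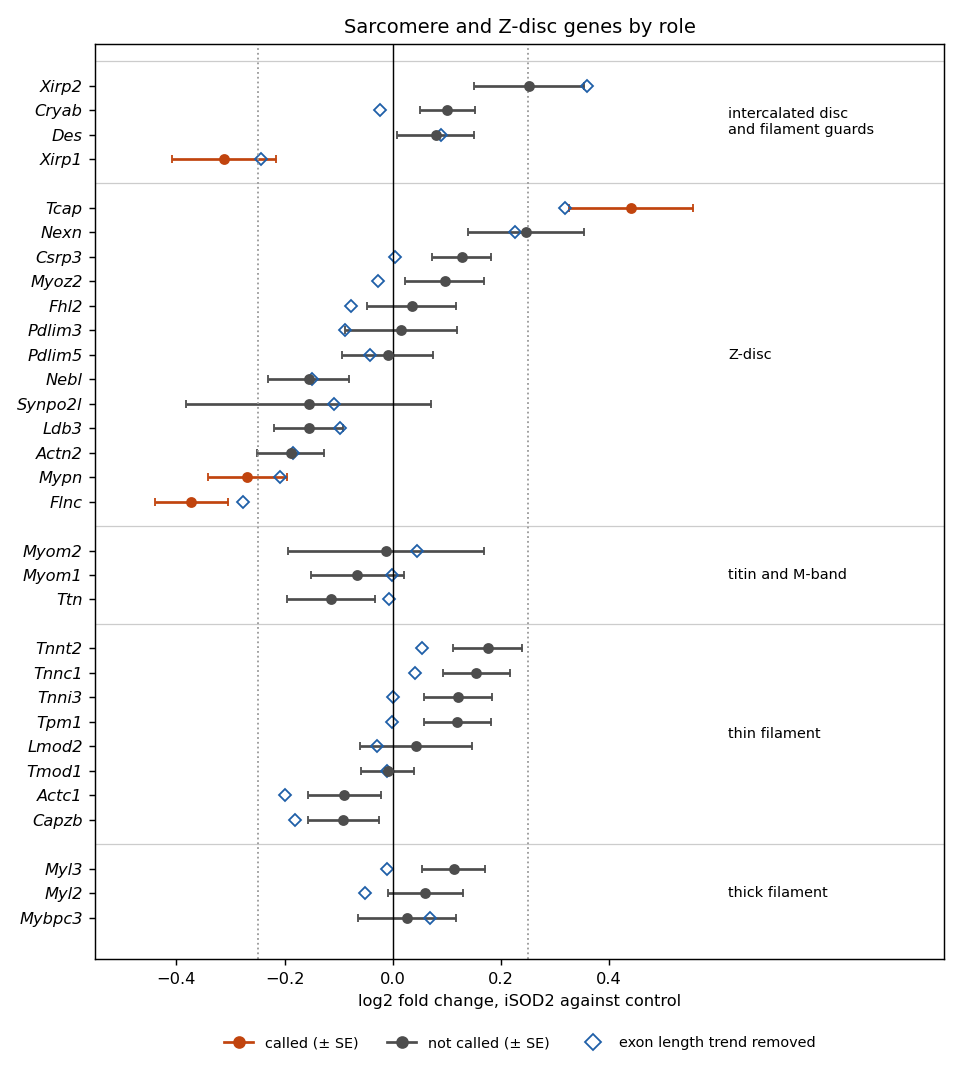
Log2 fold change of each of the 31 genes, iSOD2 against control, grouped by role, with SE bars, dotted lines at -0.25 and 0.25 and open diamonds for the value after the exon length trend was removed. The 4 called genes run from Flnc at -0.37 to Tcap at 0.44, and the diamonds of the short troponin genes sit between 0.00 and 0.05.

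Fold changes varied with exon length. Among all genes tested, 69.0% of those shorter than the median of 3210 bp were above 0 and 25.8% of the longer ones. Of the members, 21 were shorter, and 15 of these were above 0 with a median log2 fold change of 0.08. The other 10 were longer, and 8 of these were below 0 with a median of -0.13. Spearman's rho between log2 fold change and length was -0.63 over the 31 members, which share the same libraries, and -0.53 over all genes tested. The exceptions among the long members were Mybpc3 at 0.03 and Xirp2, which has 11958 bp of exon, at 0.25. Each library's length trend was then removed with a spline and the test repeated. Now 9 members were above 0 and 22 below with a median of -0.02, and 2 were called, Flnc at -0.28 (DESeq2 adjusted p = 0.0227) and Xirp2 at 0.36 (adjusted p = 0.0332), against 1.31% of all genes. Tcap was at 0.32 (adjusted p = 0.150), Mypn at -0.21 (adjusted p = 0.119), Xirp1 at -0.24 (adjusted p = 0.188) and Actn2 at -0.18 (adjusted p = 0.132), none of them called. The troponins were at 0.05 for Tnnt2, 0.04 for Tnnc1 and -0.00049 for Tnni3. The Xirp2 to Xirp1 ratio kept a log2 difference of 0.59 with an exact permutation p of 0.00794, whereas Tcap to Ttn came to 0.32 with an exact permutation p of 0.0952. Ttn and Xirp2 both lie beyond the length at which the trend was held and took the same correction, that of the longest genes. The corrected values of Xirp2, and of the ratios with Xirp2 or Ttn, use that held correction. The cause of the length trend was not tested.

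**Figure D4:**
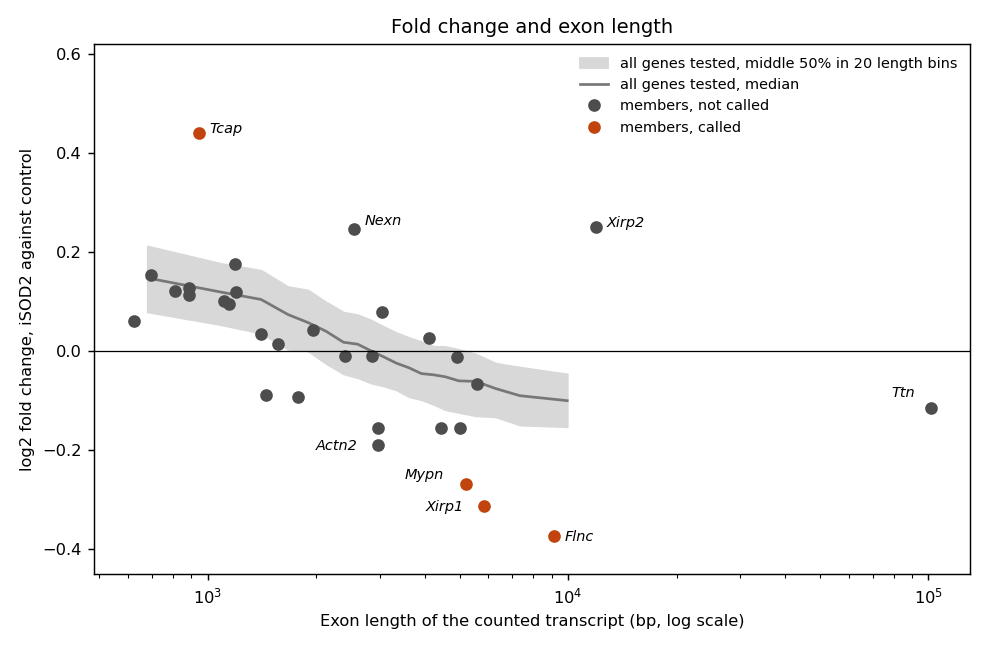
Log2 fold change of iSOD2 against control over exon length in bp on a log axis, with the 31 members as points, orange where called, over the median and the middle 50% of all genes tested in 20 length bins. The line of medians falls from 0.15 in the bin of the shortest genes to -0.10 in that of the longest. By construction the band leaves out as many of the genes tested as it holds. Members outside it include Tcap, Xirp2, Flnc, Mypn, Xirp1, Actn2, Nexn and Actc1, and also Ldb3, Nebl, Capzb, Synpo2l, Des and Mybpc3.

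Members also differed between the 2 litters. With genotype as a covariate, 3 members were lower in litter B than in litter A by the same call rule, Synpo2l, Myom2 and Mybpc3 (9.68%), against 3.5% of all 15654 genes tested in either direction and 0.977% called lower. On adjusted p alone 9 members passed, all lower in litter B (29.0%), against 4.31% of all genes and 1.44% lower. The others were Myl2, Myl3, Myom1, Myoz2, Des and Xirp1. With sex added as a covariate only Des of these 6 passed on adjusted p (0.0101), and under edgeR none did, with adjusted p from 0.0744 to 0.149. In sign, 24 of 31 were below 0 with a median log2 difference of -0.11, against 50.7% of all genes tested and 58.2% of those with at least 1000 normalized counts on average. Of the 31, 23 were lower in litter B within both genotypes, a count that has no share over all genes beside it. Both litter A controls were males and most litter B controls females, so within controls the litter difference also carries sex. The 4 litter A hearts and the 6 litter B hearts did not overlap for 5 members (Myl2, Myl3, Mybpc3, Myom2 and Synpo2l), all lower in B, against 4.35% of all genes in either direction and 1.85% lower in B.

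Synpo2l had 2952 and 2933 normalized counts in the litter A controls and 2427 and 2247 in the litter A iSOD2 hearts. Litter B gave 1790, 1828 and 1685 in controls and 2230, 1726 and 1416 in iSOD2 hearts. The highest litter B heart, iSOD2 5, came close to the lowest of litter A. The log2 difference of litter B from litter A was -0.56 ± 0.11 (SE, DESeq2 adjusted p = 1.96e-05, edgeR adjusted p = 0.0164). For Myom2, the M-band gene typical of fast, mature muscle, litter A ranged from 32192 to 38612 and litter B from 21359 to 31632. The difference was -0.46 ± 0.09 (adjusted p = 0.000129, edgeR 0.0270). For Mybpc3, litter A had 99626 and 98317 in controls and 95328 and 100840 in iSOD2 hearts, and litter B ranged from 77328 to 88631. The difference was -0.26 ± 0.05 (adjusted p = 0.00011, edgeR 0.0330). It fell under the size threshold without control 3, control 4 or iSOD2 10, at -0.25, -0.25 and -0.24. Flnc, at -0.11, and Mypn, at -0.11, were not called by litter.

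**Figure D5:**
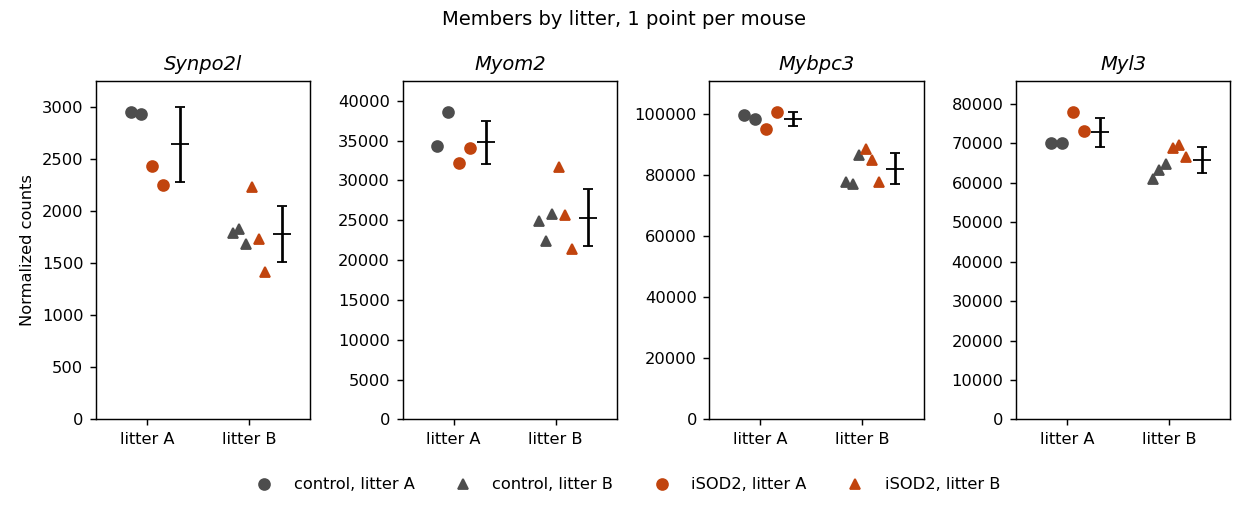
Normalized counts of Synpo2l, Myom2, Mybpc3 and Myl3 in each heart by litter (linear axes from 0), grey for control and orange for iSOD2, with mean ± SD beside each litter (n = 4 in litter A and 6 in litter B). The litters do not overlap in any of the 4 genes.

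Litter and sex are partly tied in this design. With sex added as a covariate, Mybpc3 (-0.27, DESeq2 adjusted p = 0.000514) and Synpo2l (-0.53, adjusted p = 0.0270) were called, Myom2 (-0.45, adjusted p = 0.0555) was not, and Tcap was (-0.30, adjusted p = 0.0237). In that fit 461 of 15322 genes tested were called between litters, 140 of them lower in litter B. Compared by sex with genotype as a covariate, 1 member was called, Xirp1, with a log2 difference of females from males of -0.25 (adjusted p = 0.04999), against 0.483% of all genes, 0.263% lower, and 0.606% on adjusted p alone. That call stood at the edge of the threshold. The Xirp1 call by sex was lost without control 1, 2, 4 or 6 or iSOD2 7, 8 or 10, with adjusted p from 0.0504 to 0.465, and with litter as a covariate, where the difference was -0.18 (adjusted p = 0.293). It was also lost under edgeR (adjusted p = 0.307). In the genotype-by-sex term of DESeq2, 0 members had an adjusted or unadjusted p under 0.05, against 0 of all genes at the adjusted p and 1.18% at the unadjusted. With 2 or 3 mice per genotype and sex this does not show that the sexes responded alike. The largest term, for Synpo2l, was 0.46 ± 0.42 (SE), from -0.30 in males to 0.16 in females. The genotype-by-litter term gave 0 members at the adjusted p, against 0.00564% of all genes, and 2 at an unadjusted p under 0.05, Lmod2 and Myl2, against 1.79%. edgeR gave 0 members at either level for both terms.

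Other genes of the sarcomere were read from 3 lists, against the same 2.96% of all tested genes called and 20% at an unadjusted p under 0.05. As given above, 25.8% of genes longer than the median and 69.0% of shorter ones were above 0. Of 26 tested genes of sarcomere structure beyond the members, 1 was called, Palld (palladin, a relative of myopalladin), at -0.44 ± 0.14 (SE, DESeq2 adjusted p = 0.0262). Of the same 26, 7 had an unadjusted p under 0.05, and 5 were above 0 and 21 below. After removal of the length trend Palld was at -0.37 (adjusted p = 0.139). Dmd, at 0.17 (adjusted p = 0.0701) before that removal, then passed the call rule at 0.28 (adjusted p = 0.000657), against 1.31% of all genes. Obsl1 (obscurin-like 1, an M-band partner) was at -0.24 (adjusted p = 0.0204), and Speg, a kinase related to obscurin, at -0.23 (adjusted p = 0.123). Ankrd1, a titin-associated ankyrin repeat protein, was at 0.22 (adjusted p = 0.697). Of 19 tested genes of sarcomere assembly and turnover, 0 were called by DESeq2, 3 had an unadjusted p under 0.05 and 10 were above 0 and 9 below. Trim55, a ubiquitin ligase of the sarcomere, was at -0.25 (adjusted p = 0.0489), just under the size threshold. Without the length trend Trim55 was at -0.34 (adjusted p = 0.0149) and passed the call rule. Hspb8, a small heat shock protein, was at 0.14 (adjusted p = 0.0912), and Fbxo32, the ubiquitin ligase atrogin-1, at 0.13 (adjusted p = 0.443). Of 17 regulators of the sarcomere genes, 1 was called, Mef2d, a myocyte enhancer factor, at -0.26 ± 0.08 (adjusted p = 0.0340). Of the same 17, 6 had an unadjusted p under 0.05, and 4 were above 0 and 13 below. Without the length trend Mef2d was at -0.19 (adjusted p = 0.256). Tead1, a transcription factor of the Hippo pathway, was at -0.28 (adjusted p = 0.0926) and Myocd, the serum response factor coactivator myocardin, at -0.21 (adjusted p = 0.226).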

How the data were processed

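Hearts of 10 mice were profiled by total RNA sequencing. The authors aligned reads with STAR to mm10 and summed them over exons with HOMER, 1 transcript per gene. The deposited values are estimated counts in steps of 0.5, not normalized, with an exon length per transcript as the other deposited unit. The counting command named no strand option, so reads of overlapping genes cannot be told apart by strand. Counts were rounded. Genes with at least 10 counts in all were fitted with DESeq2 1.42.0 in R 4.3.3 over all genes, without covariates, the study's own filter and thresholds. Genes tested by DESeq2 are those that kept an adjusted p after its own filtering. Of the 17728 fitted these were 9479 between genotypes, 15654 by litter and 16348 by sex. All normalized counts come from its size factors. edgeR 4.0.16, limma 3.58.1, other scalings, filters and covariates, subsets by litter and sex, and each mouse left out in turn were alternatives. The 2 covariate fits, sex in the litter test and litter in the sex test, were added after the data were seen. The length trend was a spline of 4 degrees of freedom per library over genes with a mean of at least 50, at lengths held to the percentiles 1 to 99. The scripts were tested on simulated data. Every member is named, and other genes come from lists by call or size. Members and lists were chosen with earlier results of these data known. Coordinates are mm10, counted from 1. Fold changes were not shrunken. Precision was set by the spread between mice.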

Additional observations from a re-analysis of the deposited data

Results flagged for a closer look

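Actn2 in iSOD2 7 stood apart from its group. That heart, a male of litter A, had 38638.1 normalized counts, and the other 4 iSOD2 hearts lay between 32960 and 34109. The gap to its nearest neighbour was 0.798 of the group's range, above Dixon's limit of 0.71 for 5 samples. Of 80 groups examined, 1 was set apart in this way, where chance alone gives about 4.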

How the results depend on the processing

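Of 31 members, 4 were called by DESeq2 between genotypes, against 281 of 9479 genes tested. edgeR and limma voom called 0 members and 0 genes. After removal of the length trend 2 members and 129 of 9823 genes tested were called. Within litter A 6 members and 121 of 4376 genes were called, within litter B 1 member and 65 of 13088 genes. In males 2 members and 151 of 5066 genes were called, in females 0 members and 96 of 14658 genes. With sex as a covariate 3 members and 205 of 10165 genes were called and with both sex and litter 5 and 222 of 8792. Without a fold threshold 577 genes passed. With 1 mouse left out, 2 to 5 members and 166 to 488 genes were called. The 2 members came without control 2, control 3 or iSOD2 8, and the 5 members, with 488 of 10100 genes, without control 4. Without control 2, 3 and 1 the genes called were 166 of 9086, 185 of 15235 and 186 of 7362. Of all genes called, 120 were higher and 161 lower, which turned to 183 and 132 with upper-quartile and 156 and 134 with total-count size factors. The members' median log2 fold change ran from -0.02 to 0.08 with 1 mouse left out. By litter, 6 members and 563 of 15310 genes tested were called after removal of the length trend. With 1 mouse left out these were 2 to 6 members and 300 to 705 genes. The 6 members came without iSOD2 8, with 607 of 15854 genes. The 5 members came without iSOD2 5 or 9, with 705 of 15537 and 510 of 16242 genes. By sex, 0 were called under edgeR, with at least 10 counts in 5 libraries, after removal of the length trend and with litter as a covariate, and 0 to 1 with 1 mouse left out.

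Signs turned in members and ratios that had not passed the genotype test over all mice, given here as log2 differences of iSOD2 from control. Of these, Synpo2l did pass the call rule in litter A alone, at -0.33 (DESeq2 adjusted p = 0.0193). With upper-quartile size factors Myom2 was at 0.011, Tmod1 at 0.012 and Pdlim5 at 0.010. With total-count size factors Myom2 was at 0.015, Tmod1 at 0.013 and Pdlim5 at 0.011. With sex as a covariate Myom2 was at 0.046. With litter as a covariate Myom2 was at 0.0065. With both as covariates Myom2 was at 0.010. After removal of the length trend Tnni3 was at -0.00049, Fhl2 at -0.077, Lmod2 at -0.030, Myoz2 at -0.028, Tpm1 at -0.00074, Myl2 at -0.051, Pdlim3 at -0.088, Myom2 at 0.044, Myl3 at -0.011, Cryab at -0.023, the Pdlim5 to Pdlim3 ratio at 0.041, the Lmod2 to Tmod1 ratio at -0.0074 and the Cryab to Des ratio at -0.11. In litter A alone Fhl2 was at -0.026, Lmod2 at -0.12, Myoz2 at -0.0010, Myl2 at -0.038 and Mybpc3 at -0.012. In litter B alone Myom1 was at 0.014, Myom2 at 0.10, Tmod1 at 0.014, Synpo2l at 0.018 and Pdlim5 at 0.032. In males alone Fhl2 was at -0.0068, Lmod2 at -0.0030, Mybpc3 at -0.026 and Pdlim5 at 0.0062. In females alone Capzb was at 0.022, Myom2 at 0.26, Tmod1 at 0.031 and Synpo2l at 0.16. With 1 mouse left out Myom2 ran from -0.094 to 0.11, Tmod1 from -0.034 to 0.012, Mybpc3 from -0.020 to 0.074, Pdlim5 from -0.061 to 0.056, Lmod2 from -0.027 to 0.13, Pdlim3 from -0.031 to 0.081, Fhl2 from -0.011 to 0.088, the Pdlim5 to Pdlim3 ratio from -0.13 to 0.083, the Myom2 to Myom1 ratio from -0.011 to 0.12 and the Cryab to Des ratio from -0.037 to 0.062. By subset, the Lmod2 to Tmod1 and Cryab to Des ratios were at -0.083 and -0.058 in litter A, Myl2 to Myl3, Tnnc1 to Tnni3 and Pdlim5 to Pdlim3 at 0.019, -0.013 and 0.015 in litter B, Myom2 to Myom1 at -0.13 in males, and Myl2 to Myl3, Tnnt2 to Tnni3, Tnnc1 to Tnni3 and Cryab to Des at 0.020, -0.015, -0.020 and -0.045 in females. The cause of these turns was not tested. The 4 called members kept their direction in all 26 alternatives.

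No paired analysis was possible because the 2 genotypes share no replicate number to pair single mice by. Both genotypes occur in each litter, and with litter as a covariate 4 members and 326 of 9474 genes tested were called.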
